A study of Drosophila melanogaster with 62 samples.

Results

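The subunit genes of the proteasome were followed in RNA of Drosophila melanogaster embryos after knockdown of histone acetyltransferases or deacetylases. All FlyBase genes whose symbol begins with Prosalpha, Prosbeta, or Rpn or Rpt and a digit were taken, which gave 48 of the 17753 genes in the count tables. Of these, 32 encode the subunits of the common particle and 16 are paralogs. The common subunits divide into 7 alpha-ring genes, 7 beta-ring genes, 6 ATPases of the base, 4 other base subunits and 8 lid subunits. Every one of the 48 was present in both the total RNA and the nuclear RNA table.

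The proteasome degrades proteins tagged with ubiquitin. Its core particle is a barrel in which outer alpha rings guard the entrance and inner beta rings carry the cutting sites. A regulatory particle caps the barrel: the base (Rpt ATPases with Rpn1, Rpn2, Rpn10 and Rpn13) unfolds substrates and receives ubiquitin chains, and the lid, around the ubiquitin-removing enzyme Rpn11, takes the chains off. Several fly subunits have paralogs, marked by R or T in their symbols, some of which are known for expression in the testis. The very early embryo lives on RNA laid down by its mother, and at the maternal-to-zygotic transition this RNA is cleared while the embryo's own genes are switched on.

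The 56 total RNA libraries were each made from 20 embryos sorted by hand, and the 6 nuclear RNA libraries from nuclei of 300 stage 5 embryos. In the main set, knockdowns of Nejire (the fly CBP/p300 acetyltransferase), Gcn5 (the acetyltransferase of SAGA), HDAC1 and HDAC3 had 3 libraries each at stage 5 and at stage 2, except Gcn5KD at stage 5 with 2, beside 3 control-knockdown libraries per stage. In a further set named batch1, knockdowns of Enok (a MYST-family acetyltransferase) and HDAC6 had 2 libraries per stage, beside 4 controls at stage 5 and 3 at stage 2, which pool libraries named Ctrl-KD and CtrlAc-KD. At stage 5 only, Nejire or Gcn5 knockdown was also combined with a wild type or a catalytic dead transgene of the same gene (3 libraries each). The nuclear libraries were 3 of NejireKD and 3 of control, whose library names say WT.

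Stage 2 is an early cleavage stage, before the main onset of zygotic transcription, and stage 5 is the cellular blastoderm. Each knockdown came from its own cross, so the knockdown and the line cannot be told apart, and no label names the driver of the knockdown. The rescue crosses have no control of their own, their library names carry later dates than the main set, and the Nejire rescues name another knockdown line than NejireKD. Whole embryos were lysed, so fewer cells of a type and less RNA per cell cannot be told apart.

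Total RNA libraries held 2.45 to 40.4 M counts and nuclear libraries 14.8 to 20.7 M, of which the proteasome genes took 0.503% to 1.04% and 0.435% to 0.640%. Of the 6 target genes, 5 had counts, and in each of these 5, at both stages, every knockdown library lay below every control library. The knockdown means were 15.3% to 36.7% of control at stage 5 and 0.111% to 28.5% at stage 2. HDAC3 itself had 0 counts in every library of both groups, so its knockdown is not checked here. The stage fields of 1 HDAC6KD library conflict (title stage 5, tissue stage 2), and it was used as stage 5; its Rpn11 level of 54.9 CPM lay within the range of the other stage 5 libraries and below all stage 2 libraries. The control sets stand apart at stage 5. The maternal axis gene bcd was at 117, 60.5 and 63.2 CPM in main-set controls, against 3.16, 5.84, 5.40 and 5.06 CPM in batch1 controls. Part of the main-set calls named below were therefore followed against the batch1 controls, and those lost or turned there are given with that value too. Other calls, among them Rpn7 in Gcn5KD and Rpn7, Rpn3 and Rpn9 in HDAC1KD, were not followed, so whether they held is not shown.

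Levels are CPM, counts for every M counts in a library, after TMM scaling to the bulk of genes, and changes are log2 fold changes ± standard error from edgeR's quasi-likelihood test. A change was called at a Benjamini-Hochberg adjusted p under 0.05 over all genes tested. CPM are shares of a library, so they say nothing about the amount of RNA in an embryo.

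At stage 2 the subunit mRNAs stood at similar levels, and at stage 5 they did not. Prosalpha1, with 0 to 6 counts per total RNA library, is left out of this and of all core medians and ratios per kb. Per kb of exon, the median over the core-particle genes was 347 ± 54.6 CPM in stage 5 main-set controls and 310 ± 2.24 CPM in stage 2 main-set controls (SD, n = 3 each). The median over the regulatory-particle genes was 59.8 ± 2.17 CPM per kb at stage 5 and 195 ± 6.35 CPM per kb at stage 2. The ratio of regulatory to core median was therefore 0.18 ± 0.03 in the stage 5 controls and 0.63 ± 0.02 in the stage 2 controls. Batch1 controls gave ratios of 0.16 at stage 5 and 0.67 at stage 2. Over all groups, the ratio lay between 0.0927 and 0.260 in the 34 stage 5 libraries and between 0.578 and 0.737 in the 22 stage 2 libraries, without overlap.

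Within the core particle, the highest and lowest subunit differed 1.44 to 2.17-fold per kb in stage 5 libraries and 1.43 to 1.76-fold in stage 2 libraries. Within the regulatory particle the same ratio was 7.92 to 35.9 at stage 5 and 1.76 to 2.58 at stage 2. Prosalpha1 aside, the core genes thus stayed close to one another at both stages, and the regulatory genes spread apart at stage 5. In main-set controls at stage 5, Rpn8, a lid subunit paired with Rpn11, was lowest at 17.4 CPM per kb, and Rpn12, another lid subunit, was highest of the regulatory genes at 315 CPM per kb. At stage 2 the same genes stood at 141 CPM per kb and 248 CPM per kb.

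**Figure D1:**
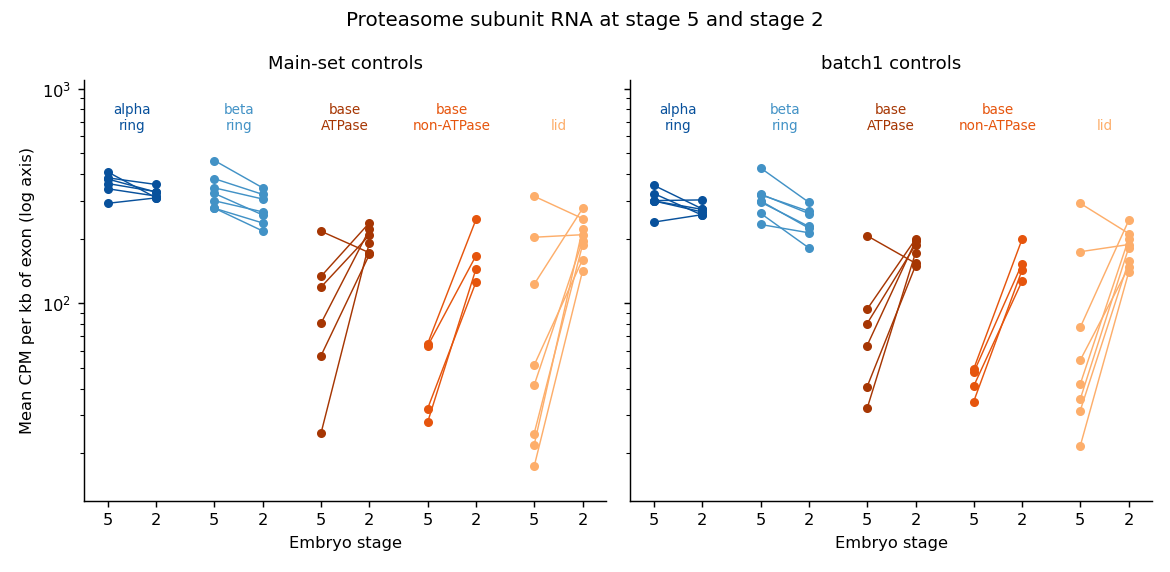
Level of each subunit gene except Prosalpha1 in CPM per kb of exon (log axis) in control embryos, stage 5 left of stage 2, for main-set and batch1 controls, coloured by part of the particle. The core genes stay in a narrow band at both stages, while the regulatory genes run from 17.4 to 315 CPM per kb at stage 5 in the main set.

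In the controls of the main set, 29 of the 32 proteasome genes tested changed between stage 5 and stage 2, 14 higher and 15 lower at stage 5. Of all genes tested, 79.8% were called, 42.5% higher and 37.3% lower, so the share called is not by itself particular to these genes. The calls divided by particle. Of 13 core genes tested, 12 were higher at stage 5 and none was lower. Of 18 regulatory genes, 15 were lower and 2 higher. The median log2 fold change was 0.45 over core genes and -1.35 over regulatory genes, beside 0.15 over all genes tested.

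The batch1 controls, which share no library with the main set, gave 32 calls of 32 tested, 17 higher and 15 lower, where 87.2% of all genes were called (48.9% higher, 38.3% lower). The paralog Rpt3R was among the higher calls. It had 3 to 8 counts per stage 2 library, under the minimum of the filter on low counts. Its call was thus bound to come out higher and supports nothing. The common subunits gave 16 higher and 15 lower. All 13 core genes were higher there (median 0.67), and of the regulatory genes 15 were lower and 3 higher (median -1.30). The same 15 regulatory genes were lower in both sets and 12 core genes were higher in both. Of the 15, 12 were at least 2-fold lower in both sets. Across the 18 regulatory genes the changes in the 2 sets correlated with Pearson's r of 0.94 and Spearman's rho of 0.91, as a description over genes, which are not independent replicates. Leaving out a library kept the 15 lower calls in the main set, with 9 to 17 genes higher.

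Rpn11 fell most in the main set. This lid subunit (FBgn0028694, chromosome 2L, 5058404 to 5059790, minus strand, dm6) is the metalloprotease that removes ubiquitin chains from substrates. It had 21, 33.9 and 29.7 CPM in stage 5 controls, against 232, 246 and 246 CPM in stage 2 controls. All stage 5 libraries were far below all stage 2 libraries, and the log2 fold change was -3.10 ± 0.17 (edgeR adjusted p = 3.1e-07). In batch1 controls Rpn11 had 53.9, 57.0, 48.8 and 65.8 CPM at stage 5, against 200, 215 and 210 CPM at stage 2. The groups again did not overlap, and the change was -1.90 ± 0.10 (edgeR adjusted p = 5.4e-10).

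Rpn8, the inactive partner of Rpn11 in the lid, had 28, 23.4 and 33.8 CPM in stage 5 controls, against 183, 205 and 197 CPM in stage 2 controls of the main set. Its log2 fold change was -2.81 ± 0.15 there and -2.34 ± 0.11 in batch1, with no overlap in either set. The lid's Rpn7 (FBgn0028688, chromosome 3R, 22460662 to 22462054, minus strand), a structural subunit, had 37.3, 38.4 and 34.7 CPM at stage 5, against 224, 236 and 244 CPM at stage 2. Rpn7 thus lay lower in every stage 5 library, by -2.67 ± 0.11 on the log2 scale in the main set and -1.96 ± 0.10 in batch1. Of the 8 lid genes, 6 were lower in each set, with medians of -1.68 and -1.59. Rpn3 changed by -1.99 ± 0.11 and -1.98 ± 0.09, Rpn9 by -1.38 ± 0.10 and -1.08 ± 0.08, and Rpn5 by -0.92 ± 0.13 and -1.29 ± 0.10, main set first.

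The lid genes that did not fall were Rpn6 and Rpn12. Rpn12, a late-joining lid subunit, had 296, 364 and 346 CPM in stage 5 controls, against 228, 216 and 222 CPM in stage 2 controls of the main set. It was higher in every stage 5 library, by 0.59 ± 0.11 in the main set and 0.83 ± 0.09 in batch1. Rpn6, which clamps lid and core together, had 400, 446 and 420 CPM at stage 5, against 360, 375 and 359 CPM at stage 2. Its change of 0.21 ± 0.10 did not pass in the main set (edgeR adjusted p = 0.085), and 0.25 ± 0.08 passed in batch1 (edgeR adjusted p = 0.0091).

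In the base, 5 of 6 ATPases and all 4 non-ATPase subunits were lower in each set. The ATPase medians were -0.89 in the main set and -1.05 in batch1, and the non-ATPase medians -1.69 and -1.48. Rpt5 (FBgn0028684, chromosome 3R, 23752876 to 23754623, plus strand), an ATPase whose tail inserts into the alpha ring, had 42.9, 44.3 and 42.1 CPM in stage 5 controls, against 286, 281 and 275 CPM in stage 2 controls. These values were tight within stages and did not overlap, and the change was -2.70 ± 0.11 in the main set and -2.05 ± 0.09 in batch1. The other ATPases that fell did so by less: Rpt3 changed by -1.32 ± 0.11, Rpt2 by -1.21 ± 0.11, Rpt6 by -0.58 ± 0.11 and Rpt1 by -0.56 ± 0.10 in the main set. Of the exon bases of Rpt6, 13% overlap CG1801 on the opposite strand, and the strand setting of the counting is not stated, so Rpt6 values could include its reads.

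Rpt4 was the ATPase that rose. It had 292, 377 and 347 CPM in stage 5 controls, against 218, 225 and 236 CPM in stage 2 controls, and the change was 0.58 ± 0.12 in the main set and 0.79 ± 0.09 in batch1. Among the other base subunits, Rpn1 (FBgn0028695, chromosome 3L, 19915051 to 19918160, plus strand), a scaffold that docks ubiquitin shuttle proteins, had 84.1, 101 and 86.2 CPM at stage 5, against 352, 414 and 421 CPM at stage 2. It was lower in every stage 5 library, by -2.12 ± 0.13 in the main set and -1.68 ± 0.10 in batch1. Rpn2, the second scaffold, changed by -1.71 ± 0.11 and -1.27 ± 0.11, and the ubiquitin receptors Rpn10 by -1.68 ± 0.11 and -1.65 ± 0.09 and Rpn13 by -1.15 ± 0.10 and -1.32 ± 0.10, main set first.

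The core genes moved up by less than 2-fold. The alpha-ring median was 0.37 in the main set and 0.52 in batch1, and the beta-ring median 0.49 and 0.74. Prosbeta5, which carries the chymotrypsin-like cutting site, had 382, 516 and 491 CPM in stage 5 controls, against 338, 331 and 318 CPM in stage 2 controls. It lay higher in every stage 5 library, by 0.49 ± 0.13 (edgeR adjusted p = 0.0071), and by 0.67 ± 0.10 in batch1. Prosbeta1 and Prosbeta2, which carry the caspase-like and trypsin-like sites, changed by 0.58 ± 0.13 and 0.48 ± 0.11 in the main set and by 0.79 ± 0.10 and 0.49 ± 0.09 in batch1. Prosbeta6, a structural beta subunit, rose most in the main set, by 0.67 ± 0.13, and by 0.90 ± 0.09 in batch1. Prosalpha5, Prosalpha7 and Prosbeta7 changed by 0.65 ± 0.13, 0.38 ± 0.12 and 0.60 ± 0.13 in the main set and by 0.73, 0.50 and 0.90 in batch1.

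Prosalpha3, an alpha-ring subunit, was the core gene without a call in the main set, at 0.16 ± 0.12 (edgeR adjusted p = 0.22). Prosalpha1 had 0 to 6 counts and its neighbouring copy Prosalpha1R 0 to 13 counts in every total RNA library. Whether reads that the pair could share were left uncounted was not tested, so the level of Prosalpha1 is uncertain. Prosalpha1 was tested in no comparison.

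**Figure D2:**
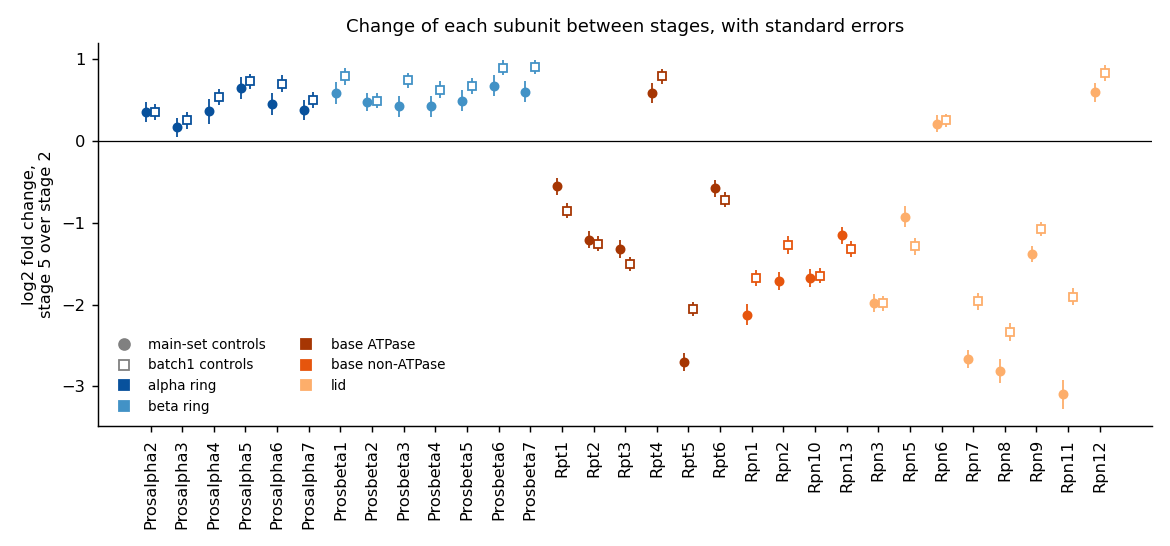
Log2 fold change ± standard error of each subunit gene except Prosalpha1 at stage 5 over stage 2, in main-set controls and in batch1 controls, ordered by part of the particle. 12 core genes lie above 0 in both sets with a call, 15 regulatory genes below 0, and Rpn12 and Rpt4 above 0.

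Genes that work with the proteasome were described as lists. Of 9 proteasome partners, 3 were higher and 3 lower at stage 5 in the main set, and 4 and 4 in batch1. Sem1, the small lid-associated subunit also known as Rpn15, changed by -3.30 ± 0.16 in the main set, and Usp14, a deubiquitinase that binds Rpn1, by -1.52. Pomp, an assembly chaperone of the core, changed by 0.50, and Uch-L5, a deubiquitinase bound by Rpn13, by 0.67. Of 11 genes of ubiquitin supply and delivery, 7 were lower and 2 higher in both sets, with Npl4 at -3.48 and p47 at -3.03, both cofactors of the segregase that extracts ubiquitinated proteins, and the activating enzyme Uba1 at -1.89 in the main set. Of all genes tested, 42.5% were higher and 37.3% lower in the main set, and 48.9% and 38.3% in batch1. All 8 tested genes of the COP9 signalosome, a complex of related architecture to the lid, were higher in both sets, with medians of 0.69 and 1.03.

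Markers of embryo age moved with the stages. The 6 maternal RNAs known to be cleared summed to 835 to 1132 CPM in stage 5 controls and 14283 to 15511 CPM in stage 2 controls of the main set. The 9 zygotic markers summed to 1337 to 1558 CPM at stage 5 and to 0.426 to 2.13 CPM at stage 2. The part of maternal clearance and of new transcription in each subunit's change was not tested.

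At stage 5, most regulatory genes called were lower in NejireKD (7 of 8) and higher in HDAC1KD (7 of 9), and Gcn5KD had 4 higher and 4 lower. Tests covered 34 proteasome genes, among them 31 common subunits. Of the 31, NejireKD gave 15 calls, 8 higher and 7 lower (37.9% of all genes called, 16.1% higher and 21.9% lower). Gcn5KD gave 8 higher and 4 lower (51.7%, 27.4% and 24.3%), and HDAC1KD gave 7 higher and 3 lower (56.0%, 27.5% and 28.5%). HDAC3KD gave 3, all higher (34.8% of all genes called, 14.5% higher). In Gcn5KD and HDAC1KD 3 paralogs were also called higher, and their values are given with the paralogs. The number called in Gcn5KD, HDAC1KD and HDAC3KD was below the share of all genes. In NejireKD the 7 lower calls of 31 lay near the 21.9% of all genes called lower. In HDAC1KD the 7 higher calls of 31 lay below the 27.5% of all genes called higher. These numbers are thus not by themselves particular to proteasome genes. Scaling on genes that are stable between stages gave 1 higher and 10 lower in NejireKD, 21 and 3 in Gcn5KD and 21 and 2 in HDAC1KD over all 34, paralogs included. That scaling also moved the median of all genes in these knockdowns, as given below, and the shares above are those under TMM. The share of all genes called under it is not given here, so these counts are not read as particular to proteasome genes. These comparisons share the 3 main-set controls.

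In NejireKD embryos at stage 5, 7 of the 18 regulatory genes were lower and 1 was higher, and the other 10, with Rpn8 and Rpn13 among them, did not pass. Rpn7 had 15.8, 13.8 and 20.7 CPM in NejireKD embryos, against 38.0, 38.1 and 33.3 CPM in control embryos. All NejireKD libraries were below all controls, with a log2 fold change of -1.13 ± 0.15 (edgeR adjusted p = 1.3e-05). Rpn11 had 15.4, 12.3 and 12 CPM in NejireKD embryos, against 21.4, 33.6 and 28.5 CPM in control embryos. The groups did not overlap, and the change was -1.06 ± 0.17 (edgeR adjusted p = 0.00011).

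The base scaffolds fell as well. Rpn2 had 62.1, 65.1 and 71.0 CPM in NejireKD embryos, against 124, 117 and 109 CPM in control embryos, without overlap (-0.83 ± 0.12, edgeR adjusted p = 2.4e-05). Rpn1 had 50.8, 56.6 and 46.4 CPM in NejireKD embryos, against 85.8, 100 and 82.7 CPM in control embryos, also without overlap (-0.81 ± 0.12, edgeR adjusted p = 2.3e-05). The ATPases Rpt5 and Rpt2 changed by -0.73 ± 0.12 and -0.58 ± 0.11, and the ubiquitin receptor Rpn10 by -0.51 ± 0.13. Rpn5, a lid subunit (FBgn0028690, chromosome 3R, 5789493 to 5791569, plus strand), had 355, 402 and 349 CPM in NejireKD embryos, against 299, 214 and 227 CPM in control embryos. It was higher in all 3 NejireKD libraries, by 0.58 ± 0.12 (edgeR adjusted p = 0.0011).

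Of the 13 core genes, 7 were higher in NejireKD embryos, by 0.26 to 0.37 on the log2 scale. Prosbeta7, the largest of these, had 475, 452 and 453 CPM in NejireKD embryos, against 301, 392 and 374 CPM in control embryos, with 1 control lower than the other controls. The others were Prosbeta3 (0.35), Prosbeta2 (0.33), Prosalpha7 (0.29), Prosbeta5 (0.27), Prosalpha5 (0.27) and Prosalpha3 (0.26). These core calls were not stable: with NejireKD and control libraries fitted alone no core gene was called, and the stable-gene scaling left none either and moved the median of all genes to -0.16, where TMM gave 0.01. The higher calls numbered 3 without main control replicate 1 and 4 without NejireKD replicate 1 or 3, while at least 7 genes were lower in each of these fits. Against the batch1 controls, Rpn11 (-1.99), Rpn7 (-1.48), Rpt5 (-1.10) and Rpn5 (1.24) kept their direction and their calls, and Rpn10 did not pass (-0.13, edgeR adjusted p = 0.304).

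In Gcn5KD embryos Rpn11 had 63.9 and 55.6 CPM, against 21.4, 33.6 and 28.5 CPM in control embryos, without overlap (1.09 ± 0.17, edgeR adjusted p = 7.2e-05). Rpt5 had 70.8 and 74.3 CPM in Gcn5KD embryos, against 43.7, 43.9 and 40.4 CPM in control embryos, also apart (0.76 ± 0.13, edgeR adjusted p = 0.00014). Rpn7 and Rpt2 were higher by 0.52 ± 0.16 and 0.40 ± 0.11, and the Rpn7 call was not followed against the batch1 controls. The opposite held for Rpn5, Rpn13, Rpt6 and Rpt3. Rpn5 had 149 and 147 CPM in Gcn5KD embryos, against 299, 214 and 227 CPM in control embryos (-0.74 ± 0.14, edgeR adjusted p = 0.00033). Rpn13 had 67.2 and 74.6 CPM in Gcn5KD embryos, against 110, 112 and 112 CPM in control embryos (-0.65 ± 0.11, edgeR adjusted p = 0.00017). Rpt6 changed by -0.49 ± 0.11 and Rpt3 by -0.34 ± 0.13. Against the batch1 controls Rpt6 was at 0.0034 and Rpt3 at 0.12, the opposite direction, and Rpn13 at -0.26 did not pass (edgeR adjusted p = 0.0571). Of the core genes, Prosbeta2, Prosbeta3, Prosbeta4 and Prosbeta7 were higher by 0.28 to 0.43, but none passed with Gcn5KD and control libraries fitted alone.

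HDAC1KD embryos had higher levels of 7 regulatory genes. Rpn8 had 62, 68.0 and 54.6 CPM in HDAC1KD embryos, against 28.6, 23.2 and 32.5 CPM in control embryos, without overlap (1.15 ± 0.15, edgeR adjusted p = 5.5e-06). Rpn11 had 60.7, 60.6 and 51.4 CPM in HDAC1KD embryos, against the same 21.4 to 33.6 CPM in control embryos (1.04 ± 0.16, edgeR adjusted p = 3.2e-05). Rpn7 had 76.8, 70.8 and 63.7 CPM in HDAC1KD embryos, against 38.0, 38.1 and 33.3 CPM in control embryos (0.94 ± 0.14, edgeR adjusted p = 2.6e-05). All HDAC1KD libraries lay above all controls for these 3 genes. Rpt5 was higher by 0.90 ± 0.12, Rpn1 by 0.75 ± 0.11, Rpn9 by 0.39 ± 0.10 and Rpn3 by 0.37 ± 0.11. The calls of Rpn7, Rpn9 and Rpn3 were not followed against the batch1 controls. Rpn13 (-0.63 ± 0.10) and Rpn5 (-0.53 ± 0.12) were lower, and Prosalpha3, the only core gene called, changed by -0.25 ± 0.10. Against the batch1 controls Prosalpha3 turned to 0.046 and Rpn13 did not pass (-0.21, edgeR adjusted p = 0.0878).

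In HDAC3KD embryos Rpn11 had 49.7, 49.6 and 45.9 CPM, against 21.4, 33.6 and 28.5 CPM in control embryos, without overlap (0.79 ± 0.16, edgeR adjusted p = 0.0014). Rpt5 and Rpn9 were higher by 0.41 ± 0.12 and 0.27 ± 0.10. No proteasome gene was called by edgeR in EnokKD (3.96% of all genes called) or HDAC6KD (1.42%) at stage 5, where 4 each had an unadjusted p under 0.05. The common subunits ranged from -0.24 to 0.37 in EnokKD and from -0.25 to 0.29 in HDAC6KD.

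**Figure D3:**
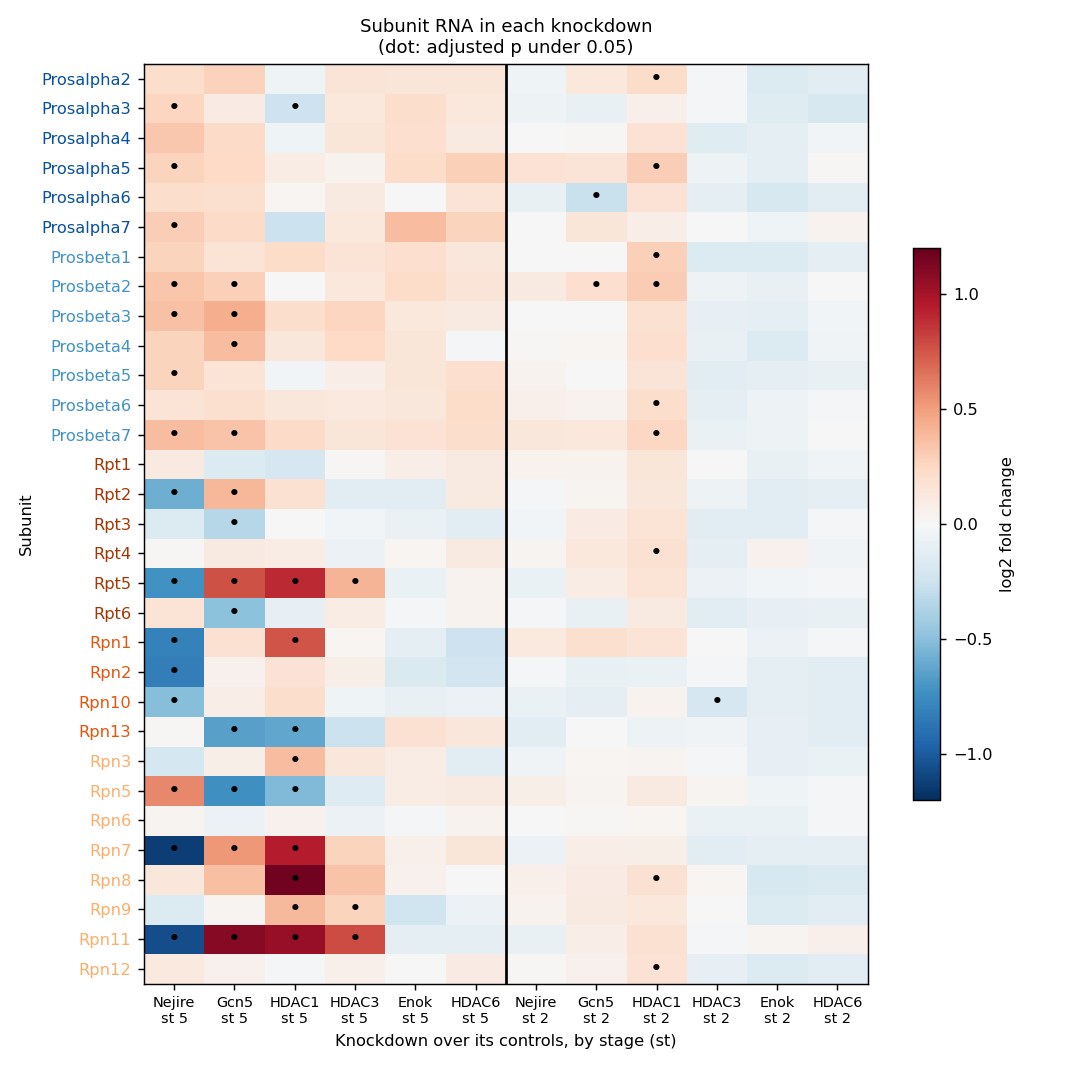
Log2 fold change of 31 common subunits (rows) in each of 6 knockdowns over its control (columns), stage 5 left of stage 2; colours run from -1.2 to 1.2 and dots mark an edgeR adjusted p under 0.05, and row names are coloured by alpha ring, beta ring, base ATPase, other base and lid. The largest changes are at stage 5 in regulatory genes, with Rpn11, Rpn7 and Rpt5 lower in NejireKD and higher in HDAC1KD and Gcn5KD.

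The 2 control sets also stood apart in Rpn11 at stage 5. Rpn11, on the scale common to all total RNA libraries, had 14.4, 11.6 and 11.2 CPM in NejireKD embryos, 58.4 and 49.5 CPM in Gcn5KD embryos and 58.4, 57.3 and 48.5 CPM in HDAC1KD embryos. Main-set controls had 19.6, 31.8 and 27.8 CPM, and batch1 controls 48.6, 51.2, 44.7 and 58.4 CPM. Gcn5KD and HDAC1KD libraries were thus above the main-set controls and within or at the edge of the range of the batch1 controls. Fitted against the batch1 controls, the Rpn11 change was 0.16 in Gcn5KD (edgeR adjusted p = 0.364), 0.13 in HDAC1KD (edgeR adjusted p = 0.416) and -0.12 in HDAC3KD (edgeR adjusted p = 0.455), so none passed. Rpn5 did not pass in Gcn5KD either (-0.08, edgeR adjusted p = 0.590), and it turned to 0.14 in HDAC1KD. Rpt5 kept its call in HDAC1KD (0.54, edgeR adjusted p = 0.000321) and lost it in HDAC3KD (0.05, edgeR adjusted p = 0.702).

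Among the maternal age markers, bcd moved with the same libraries. The sum of the 6 cleared maternal markers lay below every main-set control in Gcn5KD, HDAC1KD and HDAC3KD, but overlapped the controls in NejireKD. The zygotic markers summed lower in NejireKD, Gcn5KD and HDAC1KD than in any main-set control. The maternal RNA bcd had 137, 171 and 147 CPM in NejireKD embryos, 7.94 and 5.94 CPM in Gcn5KD embryos, 5.58, 3.61 and 4.38 CPM in HDAC1KD embryos and 22, 10.3 and 28.3 CPM in HDAC3KD embryos, against 117, 60.5 and 63.2 CPM in main-set controls. The 6 cleared maternal markers, none at 0, summed to 1061 to 1265 CPM in NejireKD, 412 to 421 CPM in Gcn5KD, 546 to 628 CPM in HDAC1KD and 495 to 674 CPM in HDAC3KD, against 835 to 1132 CPM in main-set controls. The 9 zygotic markers, none at 0, summed to 280 to 435 CPM in NejireKD, 933 to 1054 CPM in Gcn5KD, 1098 to 1243 CPM in HDAC1KD and 1332 to 1477 CPM in HDAC3KD, against 1337 to 1558 CPM in main-set controls. Among these groups, NejireKD with the most bcd had the least Rpn11, and the 3 groups with less bcd than main-set controls had more Rpn11. The part of embryo age in the stage 5 results was not tested.

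**Figure D4:**
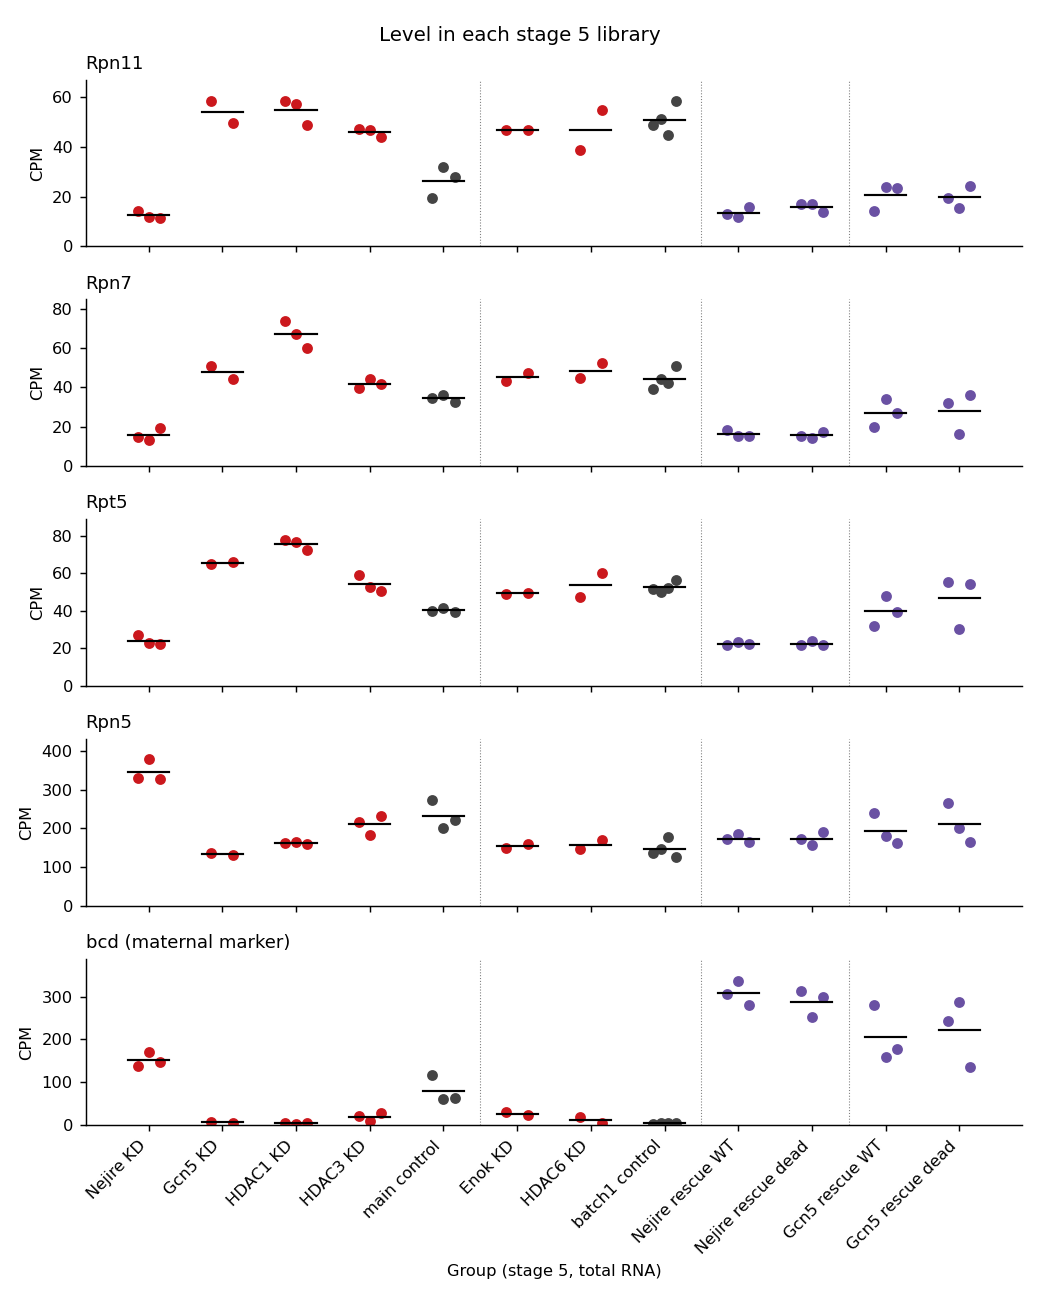
CPM of Rpn11, Rpn7, Rpt5, Rpn5 and the maternal RNA bcd in each stage 5 total RNA library (points) of 12 groups, on the scale common to all total RNA libraries; black lines are group means. Rpn11 is lowest in NejireKD (11.2 to 14.4 CPM) and highest in HDAC1KD (48.5 to 58.4 CPM), and its batch1 controls (44.7 to 58.4 CPM) lie above its main-set controls (19.6 to 31.8 CPM).

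Over the 12 stage 5 groups, the group means of a core gene varied 1.36 to 2.49-fold and those of a regulatory gene 1.21 to 4.41-fold. Rpn11 had the widest range, 12.4 CPM in NejireKD to 54.7 CPM in HDAC1KD, and Rpt4 the narrowest, 281 CPM in the Gcn5 catalytic dead rescue to 340 CPM in HDAC1KD. Over the 8 stage 2 groups the ranges were 1.33 to 1.58-fold for core genes and 1.14 to 1.41-fold for regulatory genes.

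The lists of related genes were also mixed at stage 5. Of the 9 partners, 2 were called in NejireKD, 8 in Gcn5KD, 4 in HDAC1KD and 5 in HDAC3KD. Sem1 was higher in Gcn5KD, by 1.13, and cnc, the fly relative of the factor that activates proteasome genes, was at -1.19 in Gcn5KD and -0.95 in HDAC1KD. Of the 11 ubiquitin genes, 3 were called in NejireKD, 6 in Gcn5KD, 9 in HDAC1KD and 7 in HDAC3KD. Npl4 was at -0.46 in NejireKD, 0.95 in Gcn5KD and 1.07 in HDAC1KD, all 3 called. Of the 8 COP9 genes tested, 1, 3, 2 and 1 were called in NejireKD, Gcn5KD, HDAC1KD and HDAC3KD. The share of all genes called was 37.9%, 51.7%, 56.0% and 34.8% in these 4 comparisons.

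At stage 2, when embryos carry maternal RNA, the common subunits hardly moved: all 31 tested lay within 2-fold of control in each of the 6 knockdowns. Calls were few: NejireKD and HDAC3KD gave 1 each of 33 tested (10.1% and 17.6% of all genes called), Gcn5KD 4, 3 higher and 1 lower (36.9%; 19.2% higher) and HDAC1KD 9 (15.9%). EnokKD (5.34%) and HDAC6KD (3.16%) gave 0 of 32 by edgeR, with 1 unadjusted p under 0.05 each. The NejireKD call was the paralog Rpt6R, and the paralogs Rpt6R and Rpt3R were among the Gcn5KD calls. The 9 calls of HDAC1KD were all higher (8.72% of all genes called higher) and small, from 0.18 to 0.31, with Prosbeta2 at 0.31, Prosalpha5 at 0.29, Prosbeta1 at 0.28, Prosbeta7 at 0.25, Prosalpha2 at 0.22 and Prosbeta6 at 0.21. The regulatory genes among them were Rpn8 at 0.19, Rpt4 at 0.18 and Rpn12 at 0.18. They numbered 4 without main control replicate 2 or without HDAC1KD replicate 2, and 13 without main control replicate 1. In Gcn5KD, Prosbeta2 was at 0.20 and Prosalpha6 at -0.26, and in HDAC3KD Rpn10 was at -0.20 ± 0.06 (edgeR adjusted p = 0.017). Against the batch1 controls Prosalpha6 turned to 0.035 and Rpn10 to 0.036.

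The difference between a knockdown's effect at stage 5 and at stage 2 was tested directly in 35 proteasome genes. It was called for 8 genes in NejireKD (20.1% of all genes), 10 in Gcn5KD (32.0%), 11 in HDAC1KD (37.4%) and 3 in HDAC3KD (22.8%). Rpn11 was among them in all 4, at -0.97 in NejireKD, 1.00 in Gcn5KD, 0.95 in HDAC1KD and 0.81 in HDAC3KD. These differences rest on the main-set stage 5 controls: against batch1 controls the stage 5 change of Rpn11 was 0.16, 0.13 and -0.12 in Gcn5KD, HDAC1KD and HDAC3KD, none called. Rpn5 differed in the opposite direction, at 0.51 in NejireKD, -0.78 in Gcn5KD and -0.55 in HDAC1KD. Against batch1 controls its stage 5 change was called in NejireKD (1.24) and not in Gcn5KD (-0.08) or HDAC1KD (0.14).

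The rescue crosses asked whether catalytic activity of the added transgene matters. No proteasome gene was called between wild type and catalytic dead rescue, neither for Nejire (33 tested, 0.258% of all genes called, 1 unadjusted p under 0.05) nor for Gcn5 (34 tested, 0.0%, 0 unadjusted). Rpn11 had 12.1, 11 and 14.9 CPM with wild type Nejire, against 15.9, 16.1 and 13.1 CPM with catalytic dead Nejire, with overlapping values (-0.26 ± 0.14, edgeR adjusted p = 0.44). With Gcn5 transgenes it had 13.9, 23.5 and 22.9 CPM for wild type, against 19.9, 15.1 and 23.9 CPM for catalytic dead, also overlapping. The regulatory to core ratio was 0.10 with wild type and 0.11 with catalytic dead Nejire, and 0.17 with wild type and 0.20 with catalytic dead Gcn5. bcd was at 281 to 336 CPM with wild type and 253 to 313 CPM with catalytic dead Nejire, above every NejireKD and main-set control library, from which these crosses also differ in line and date. The 6 cleared maternal markers together went the other way. They summed to 723 to 844 CPM with wild type and 668 to 769 CPM with catalytic dead Nejire, against 835 to 1132 CPM in main-set controls and 1061 to 1265 CPM in NejireKD. The 9 zygotic markers summed to 1965 to 2052 CPM and 1733 to 1949 CPM, against 1337 to 1558 CPM in main-set controls.

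The 16 paralogs were a class of their own. Only 6 passed the filter on low counts in at least 1 comparison, and 10 passed in none. Their group means in total RNA reached 22 CPM for Rpt3R, 7.65 CPM for Prosbeta2R2, 5.00 CPM for Rpt6R and 1.29 CPM for Rpn12R, and stayed below 1 CPM for the other 12. A paralog that passed the filter only because 1 group was high had to differ, so the counts of paralogs are given as values and support nothing.

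Rpt3R, a paralog of the ATPase Rpt3 (FBgn0037742, chromosome 3R, 9754735 to 9756510, minus strand), had 26 and 22.6 CPM in Gcn5KD embryos at stage 5, against 2.40, 3.55 and 1.98 CPM in control embryos (3.10 ± 0.34, edgeR adjusted p = 1.9e-06). HDAC1KD embryos had 12.3, 14.8 and 14.9 CPM, against the same controls (2.29 ± 0.33, edgeR adjusted p = 1.6e-05). Both knockdowns lay above every control. At stage 2, Rpt3R had 11.2, 13.5 and 11.8 CPM in Gcn5KD embryos, against 1.33, 1.74 and 2.01 CPM in control embryos, so in this gene the difference was already present at stage 2 (2.79 ± 0.21, edgeR adjusted p = 4.2e-08). In batch1 controls Rpt3R had 6.09, 3.99, 3.47 and 2.10 CPM at stage 5, against 0.440, 0.777 and 0.525 CPM at stage 2. The change was 2.70 ± 0.44 (edgeR adjusted p = 5.1e-05). These stage 2 libraries held 3 to 8 counts of Rpt3R, under the filter's minimum, so it entered that test through stage 5 alone. The call was thus bound to come out higher, and its p-value supports nothing. In main-set controls the stage change of Rpt3R was 0.76 ± 0.33 (edgeR adjusted p = 0.055).

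Rpt6R, a paralog of Rpt6 (FBgn0039788, chromosome 3R, 30582198 to 30583697, minus strand), had 5.08 and 6.01 CPM in Gcn5KD embryos at stage 5, against 0.185, 0.761 and 1.19 CPM in control embryos (3.08 ± 0.72, edgeR adjusted p = 0.0020). It was also higher in HDAC1KD at stage 5 (2.06 ± 0.73, edgeR adjusted p = 0.023), in Gcn5KD at stage 2 (3.14 ± 0.51) and in NejireKD at stage 2 (2.02 ± 0.59, edgeR adjusted p = 0.039). Stage 5 controls had 1, 6 and 3 counts of Rpt6R and 6, 4 and 4 counts of Prosbeta2R2, under the filter's minimum of 10, so both entered the test through the groups where they are high. At stage 2, main-set controls had 1 to 7 counts of Rpt6R, also under that minimum. These calls were thus bound to come out higher, and the p-values of both paralogs support nothing. Prosbeta2R2, a paralog of Prosbeta2 (FBgn0037296, chromosome 3R, 5217751 to 5219528, minus strand), had 6.71, 9.94 and 7.53 CPM in HDAC1KD embryos at stage 5, against 1.11, 0.507 and 1.58 CPM in control embryos (3.08 ± 0.53, edgeR adjusted p = 9.3e-05). In Gcn5KD embryos it had 3.72 and 2.94 CPM, also above the controls (1.83 ± 0.59, edgeR adjusted p = 0.016). The eggshell marker genes summed to 6.06 and 109 CPM in Gcn5KD at stage 5, with 4 of 12 at 0 in every library, against 0.169 to 1.32 CPM in control embryos, with 7 of 12 at 0. In HDAC1KD they summed to 1.98 to 3.13 CPM. The 10 testis markers summed to 36.8 to 39 CPM in Gcn5KD and 38.2 to 46.0 CPM in HDAC1KD, with 3 at 0 in each, against 17.7 to 21.2 CPM in control embryos, with 4 at 0. The part of RNA from these cell types in the paralog values was not tested.

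In nuclear RNA, NejireKD and control libraries were scaled to the ERCC spike-in, and 36 proteasome genes were tested. None of the 31 common subunits passed in edgeR, where 2, both regulatory, had an unadjusted p under 0.05, and DESeq2 called 1, also regulatory. Of the paralogs 3 passed in edgeR, all higher in NejireKD (13.4% of all genes called, 3.52% higher). The 3 paralogs had fewer than 10 counts in every control library and entered the test through NejireKD alone, so their calls were bound to come out that way and only their counts are given. Prosalpha4T2, a paralog of the alpha subunit Prosalpha4, had 29, 76 and 124 counts in NejireKD nuclei, against 0, 0 and 0 counts in control nuclei. Prosbeta4R2, a paralog of Prosbeta4 (FBgn0031443, chromosome 2L, 2655394 to 2657102, plus strand), had 14, 41 and 91 counts in NejireKD nuclei, against 0, 0 and 0 counts in control nuclei. Rpn12R, a paralog of Rpn12 (FBgn0036465, chromosome 3L, 15041631 to 15042570, minus strand), had 83, 350 and 306 counts in NejireKD nuclei, against 2, 3 and 9 counts in control nuclei.

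All NejireKD nuclear libraries exceeded all controls for these 3 paralogs. Other paralogs were mixed. Prosbeta4R1 had 9, 19 and 49 counts in NejireKD nuclei, against 0, 0 and 1 in control nuclei, and Rpt4R had 6, 15 and 17 counts in NejireKD nuclei, against 0, 1 and 0 in control nuclei. Prosbeta2R2 had 5, 7 and 10 counts in NejireKD nuclei, against 10, 8 and 19 in control nuclei, and Rpn13R 1, 2 and 5 against 2, 0 and 4. Rpt3R had 61, 67 and 79 counts in NejireKD nuclei, against 41, 48 and 61 in control nuclei, but after ERCC scaling 1.73, 2.47 and 8.87 CPM, against 3.86, 5.25 and 4.86 CPM, which overlap. In total RNA the group means of Prosalpha4T2, Prosbeta4R2 and Rpn12R were at most 0.827, 0.103 and 1.29 CPM. Testis markers were given beside them: aly was at 0.255 to 4.04 CPM in NejireKD nuclei, against 0 in control nuclei, sa at 0.312 to 6.29 CPM against 0 to 0.109 CPM, and topi at 0 to 0.225 CPM against 0.983 to 2.07 CPM. The 10 testis markers summed to 3.29 to 35.0 CPM in NejireKD nuclei, with 2 at 0 in every library, and to 24.1 to 27.2 CPM in control nuclei, with 4 at 0. Their part in the paralog result was not tested.

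**Figure D5:**
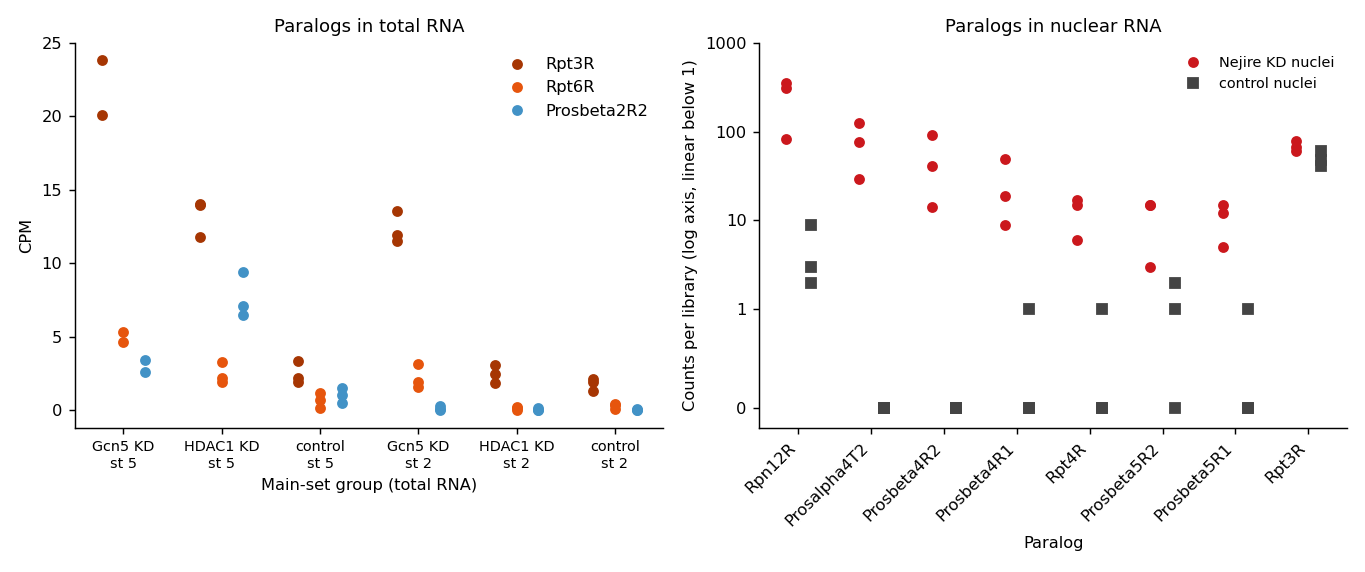
Left, CPM of Rpt3R, Rpt6R and Prosbeta2R2 in each total RNA library of Gcn5KD, HDAC1KD and control embryos at stage 5 and stage 2. Right, counts of selected paralogs in each nuclear library of NejireKD and control (log axis that includes 0). These are Rpn12R, Prosalpha4T2, Prosbeta4R2, Prosbeta4R1, Rpt4R, Prosbeta5R2, Prosbeta5R1 and Rpt3R. Prosbeta2R2, with 5, 7 and 10 counts in NejireKD nuclei and 10, 8 and 19 in control nuclei, is not shown at right. Prosalpha4T2 and Prosbeta4R2 have 14 to 124 counts in NejireKD nuclei and 0 in control nuclei.

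In nuclei the core median of log2 fold changes was -0.09 and the regulatory median -0.54, beside -0.29 over all genes tested. Rpn11 had 9.76, 8.98 and 34.7 CPM in NejireKD nuclei, against 79.0, 64.7 and 49.8 CPM in control nuclei. The groups did not overlap, but NejireKD replicate 3 stood well above the other 2, and the change of -1.86 ± 0.78 did not pass (edgeR adjusted p = 0.10). Without that replicate 34 proteasome genes were called, 31 of them lower. NejireKD replicates 1 and 2 had 5689 and 4386 ERCC counts, against 1437 in replicate 3 and 1713, 1477 and 2026 in controls. Spike-in scaling therefore sets all fly genes lower in replicates 1 and 2, so the 31 are not read as particular to proteasome genes. With TMM scaling on the fly genes in place of the spike-in, 14 proteasome genes were called, 9 higher and 5 lower, all 5 lower in the regulatory particle. The share of all genes called under these alternatives is not given here. The regulatory to core ratio of levels per kb, which no scaling changes, was 0.12 in NejireKD nuclei and 0.20 in control nuclei.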

How the data were processed

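The values are counts of reads per FlyBase gene, deposited by the authors without normalisation, for 56 total RNA and 6 nuclear RNA libraries. Genome build dm6 and bcl2fastq 2.20.0.422 are named in the submitters' processing notes. Which aligner, counter and strand setting were used is not given in the sources used here. Of 17753 gene identifiers, 17626 (99.3%) matched Ensembl release 115, whose coordinates and exon lengths were used, and nuclear counts also held 92 ERCC transcripts.

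Groups followed the sample titles. The test was the quasi-likelihood F test of edgeR 4.0.16 (R 4.3.3) after filterByExpr, with a minimum of 10 counts and 15 over the libraries, and TMM scaling. P-values were adjusted by Benjamini-Hochberg over all genes tested and called under 0.05. The groups of a set were fitted together at each stage, the stage, rescue and nuclear comparisons alone, and stage-dependent effects as an interaction in the main set. Each nuclear library was scaled by its ERCC total. As standard error, the size of the fold change (log2) over the root of F was used. Levels beside a fold change come from its own fit, and levels per kb, across sets or of markers from TMM over all total RNA libraries. The labels call the libraries biological replicates, and p-values measure only the spread between them. The fits were tested on simulated data.

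The members and gene lists were chosen with earlier results of these data known. Named are a panel (the cutting beta subunits, Prosalpha7, Rpn1, Rpn2, Rpn10, Rpn11, Rpn13 and the Rpt ATPases), the 5 called members that rose most and the 5 that fell most, any called member that changed at least 2-fold, paralogs that reach 1 CPM, and called genes of the other lists. Panel members that were not called in a knockdown are given by ranges and in the map of changes, and any other member named was chosen after its values were seen. Of the lists, Ecm29 and TER94 had no match in the tables. Replicate numbers were checked for pairing and do not pair the samples. Alternatives were DESeq2 1.42.0, other scalings, no filter, a replicate block, batch1 controls, 2 groups alone and each library left out.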

Additional observations from a re-analysis of the deposited data

Results flagged for a closer look

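The 4 batch1 controls at stage 5 were the only group of 4 libraries, and 3 of 31 subunits had a library apart from the others there, where chance gives about 5%. All 3 concerned replicate 3, which was highest for Prosalpha2 (322 CPM) and Prosalpha6 (416 CPM) and lowest for Rpn2 (126 CPM).

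The effects of a knockdown differed between stage 5 and stage 2 by the interaction test in the following genes, given as the stage 5 minus the stage 2 log2 effect. In NejireKD these were Rpn5 (0.51), Rpn7 (-1.07), Rpn11 (-0.97), Rpn1 (-0.93), Rpn2 (-0.81), Rpt5 (-0.64), Rpt2 (-0.56) and Rpn10 (-0.43). In Gcn5KD they were Rpn11 (1.00), Rpt5 (0.66), Rpn7 (0.44), Prosalpha6 (0.44), Prosbeta3 (0.42), Rpt2 (0.36), Rpn5 (-0.78), Rpn13 (-0.66), Rpt3 (-0.44) and Rpt6 (-0.42). In HDAC1KD they were Rpt3R (1.81), Rpn8 (1.08), Rpn7 (0.97), Rpn11 (0.95), Rpt5 (0.83), Rpn1 (0.68), Rpn3 (0.43), Rpn9 (0.36), Rpn2 (0.35), Rpn5 (-0.55) and Rpn13 (-0.47). In HDAC3KD they were Rpn11 (0.81), Rpt5 (0.48) and Rpn7 (0.42). Knockdowns of the main set share their controls, so these values are not independent of one another. They rest on the main-set stage 5 controls. Against batch1 controls, these stage 5 changes were not called: Rpn10 in NejireKD (-0.13), and Rpn11 (0.16), Rpn5 (-0.08), Rpn13 (-0.26), Rpt6 (0.0034) and Rpt3 (0.12) in Gcn5KD. Nor were Rpn11 (0.13), Rpn5 (0.14) and Rpn13 (-0.21) in HDAC1KD, or Rpn11 (-0.12) and Rpt5 (0.05) in HDAC3KD. The other NejireKD genes, Rpt5 and Rpt2 in Gcn5KD and Rpt3R, Rpn8, Rpt5 and Rpn1 in HDAC1KD kept their calls. The remaining genes were not followed there.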

How the results depend on the processing

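Counts of proteasome genes called depended on the controls and, in nuclear RNA, on 1 library. Against batch1 controls they were 28 in NejireKD, 24 in HDAC1KD and 21 in HDAC3KD at stage 5, and 11 in NejireKD, 19 in Gcn5KD, 26 in HDAC1KD and 3 in HDAC3KD at stage 2. All reversed values came from these controls: Rpt6 (0.0034) and Rpt3 (0.12) in Gcn5KD, Rpn5 (0.14) and Prosalpha3 (0.046) in HDAC1KD and Rpn11 (-0.12) in HDAC3KD at stage 5, and Prosalpha6 (0.035) in Gcn5KD and Rpn10 (0.036) in HDAC3KD at stage 2. With stable-gene scaling the stage 5 counts were 24 in Gcn5KD, 23 in HDAC1KD and 5 in HDAC3KD. That scaling put the median of all genes at 0.21 in Gcn5KD (0.08 by TMM) and at 0.21 in HDAC1KD (0.03 by TMM). With 2 groups alone the counts were 8 in NejireKD and 9 in Gcn5KD at stage 5, and 0 in NejireKD and 2 in HDAC3KD at stage 2. Without a filter they were 1 in EnokKD at stage 5, and 0, 4 and 0 in NejireKD, HDAC1KD and HDAC3KD at stage 2. DESeq2 gave 7 in Gcn5KD and 3 in HDAC3KD at stage 2, and 19 and 20 for the stage difference of Gcn5KD and HDAC3KD. That of HDAC3KD was 17 with DESeq2 size factors, 13 with stable genes and 8 without a filter. Nuclear RNA gave 14 with TMM on fly genes. The cause of these shifts was not tested. The share of all genes called is not given here for these settings, for fits without a library or for the replicate block. None of these counts is therefore read as particular to proteasome genes. The 102 other counts under these settings were within 1.5 times.

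Leaving out a library gave 24 to 32 calls for stage in the main set, 31 to 32 in batch1, and at stage 5 10 to 17 in NejireKD, 10 to 16 in Gcn5KD, 11 to 13 in HDAC1KD, 2 to 5 in HDAC3KD, 0 to 1 in EnokKD and 0 to 0 in HDAC6KD. At stage 2 the ranges were 0 to 1, 3 to 5, 4 to 13 and 0 to 1 in NejireKD, Gcn5KD, HDAC1KD and HDAC3KD. For the stage difference they were 7 to 10, 7 to 11, 10 to 13 and 2 to 6, for the rescues 0, and for nuclear RNA 3 to 34.

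With the replicate number as a block, which does not pair these samples (same-number correlations ran from -0.69 to 0.57), the counts were 26 and 32 for stage, 16 in NejireKD, 14 in Gcn5KD, 13 in HDAC1KD and 3 in HDAC3KD at stage 5, 1, 4, 7 and 1 at stage 2, and 3 in nuclear RNA. Depth limits the paralogs most, since at 2.45 M counts a level of 1 CPM is a few reads.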
